A study of Mus musculus with 8 samples.

Results

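The mitochondrial carriers of the Slc25 family were examined in heart ventricles taken 24 hours after surgery from male C57BL\6 mice, 4 with myocardial infarction (MI) and 4 sham-operated, on 1 single-colour array per mouse. MI was induced by a permanent ligation of the anterior interventricular artery, and the controls had the operation without the occlusion. No transgene is named for either group. The paper states that all mice of this array group had an FDG-PET exam 24 hours after surgery. For that exam it describes Acipimox as pre-medication, the tracer FDG and isoflurane anaesthesia. The RNA came from whole ventricles, which hold infarcted and surviving tissue together, so that fewer cells of a type and less RNA per cell cannot be told apart in any value below. Probes were assigned to the family through the RefSeq transcript on which they were designed, and all symbols beginning with Slc25a except Slc25a20 were taken. Of the 20145 genes with a probe, 46 were such carriers. Of these 46, 38 had a probe whose signal was well above background in 4 or more of the 8 mice, among 15156 such genes in all, and the brightest of these probes stood for the gene.

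Slc25 proteins are carriers of the inner mitochondrial membrane that exchange nucleotides, phosphate, carboxylates, amino acids and cofactors between matrix and cytosol. They are encoded in the nucleus, synthesised in the cytosol and inserted into the inner membrane by the carrier import route. In heart muscle, whose ATP comes mostly from oxidative phosphorylation, the ADP/ATP carrier Slc25a4 and the phosphate carrier Slc25a3 supply the ATP synthase with its substrates and send ATP out.

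The arrays differed in overall signal, which bears on every value below. Values normalized here with the spike-in RNA are called spike-in values, and they carry an additive constant of 166 to 257 signal units per array. The constant compresses differences of dim probes on the log2 scale. It was larger than the constant of 3.16 to 19.6 signal units recovered from the deposited normalized values, so dim carriers differ more between these 2 scales than bright ones. The mean signal of 8 carriers lay under the smallest of these constants, namely Slc25a10, Slc25a15, Slc25a18, Slc25a23, Slc25a27, Slc25a30, Slc25a35 and Slc25a45. In these values MI mouse 2 was the lowest MI mouse for 35 of the 38 carriers and for 87.1% of all retained probes, and sham mouse 2 was the lowest sham-operated mouse for 33 carriers and for 80.1% of all retained probes. The same genes were therefore also compared after scaling each array to its 75th percentile, where these mice were lowest for 19 and 10 carriers and for 23.3% and 23.9% of all retained probes. The median log2 fold change of all 34038 retained probes was 0.03 in spike-in values and -0.02 after that scaling.

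**Figure D1:**
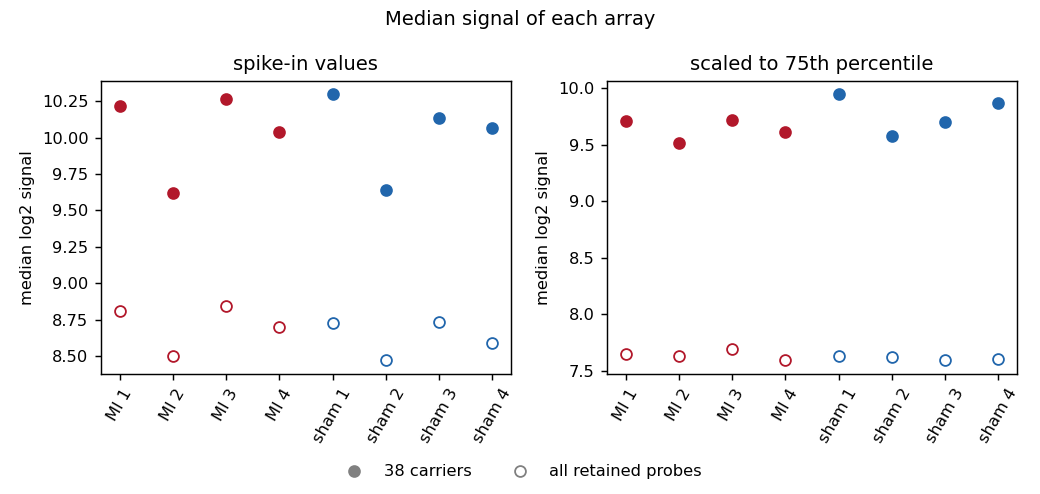
Median log2 signal (vertical axis) of the 38 carriers (filled points) and of all retained probes (open points) on each array (horizontal axis), with MI mice in red and sham-operated mice in blue, for spike-in values on the left and values scaled to the 75th percentile on the right. In spike-in values the carriers of MI mouse 2 and sham mouse 2 sit at 9.62 and 9.64, under the other mice at 10.04 to 10.30.

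In spike-in values none of the 38 carriers passed an adjusted p of 0.05 (limma, Benjamini-Hochberg over all retained probes), in either direction and with or without the 2-fold threshold of the study. Across all retained probes 0.355% were called lower, 3.38% higher and 0.978% past 2-fold. At an unadjusted p under 0.05, 5 carriers were lower and 0 higher, beside 4.35% and 11% of all retained probes. Significance analysis of microarrays, the test of the study, called 3 lower (Slc25a38, Slc25a26 and Slc25a33) beside 1.91% of all probes tested. With each array scaled to its 75th percentile instead, 10 carriers were lower in MI mice and 0 higher, where 8.84% of all retained probes were called lower and 8.7% higher. In the authors' normalized values 3 carriers were lower (Slc25a38, Slc25a26 and Slc25a33) and 0 higher, beside 0.943% and 4.95% of all probes. The number of carriers that passed thus differed between the scales, and each call below is given with its scale. Over all probes, 1150 were called higher and 121 lower in spike-in values, and 2963 higher and 3010 lower on the scaled values.

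The median log2 fold change of the carriers was 0.01 in spike-in values, against -0.13 on the scaled values. In spike-in values 18 carriers had a negative and 20 a positive log2 fold change, from -0.83 to 0.28, with a median standard error of 0.15. The 95% interval of 33 carriers lay within 2-fold in both directions, and none reached past 2-fold higher. The intervals of Slc25a33, Slc25a26, Slc25a38, Slc25a34 and Slc25a42 reached past 2-fold lower. For dim carriers the additive constant compresses these intervals as well. That of Slc25a27 was -0.54 to -0.002 in spike-in values and -1.37 to -0.51 on the scaled values. On the scaled values 32 intervals lay within 2-fold in both directions, 6 reached past 2-fold lower and 0 past 2-fold higher. Slc25a38, Slc25a26, Slc25a17, Slc25a27, Slc25a46, Slc25a1 and Slc25a11 were singled out for description after their values were seen.

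**Figure D2:**
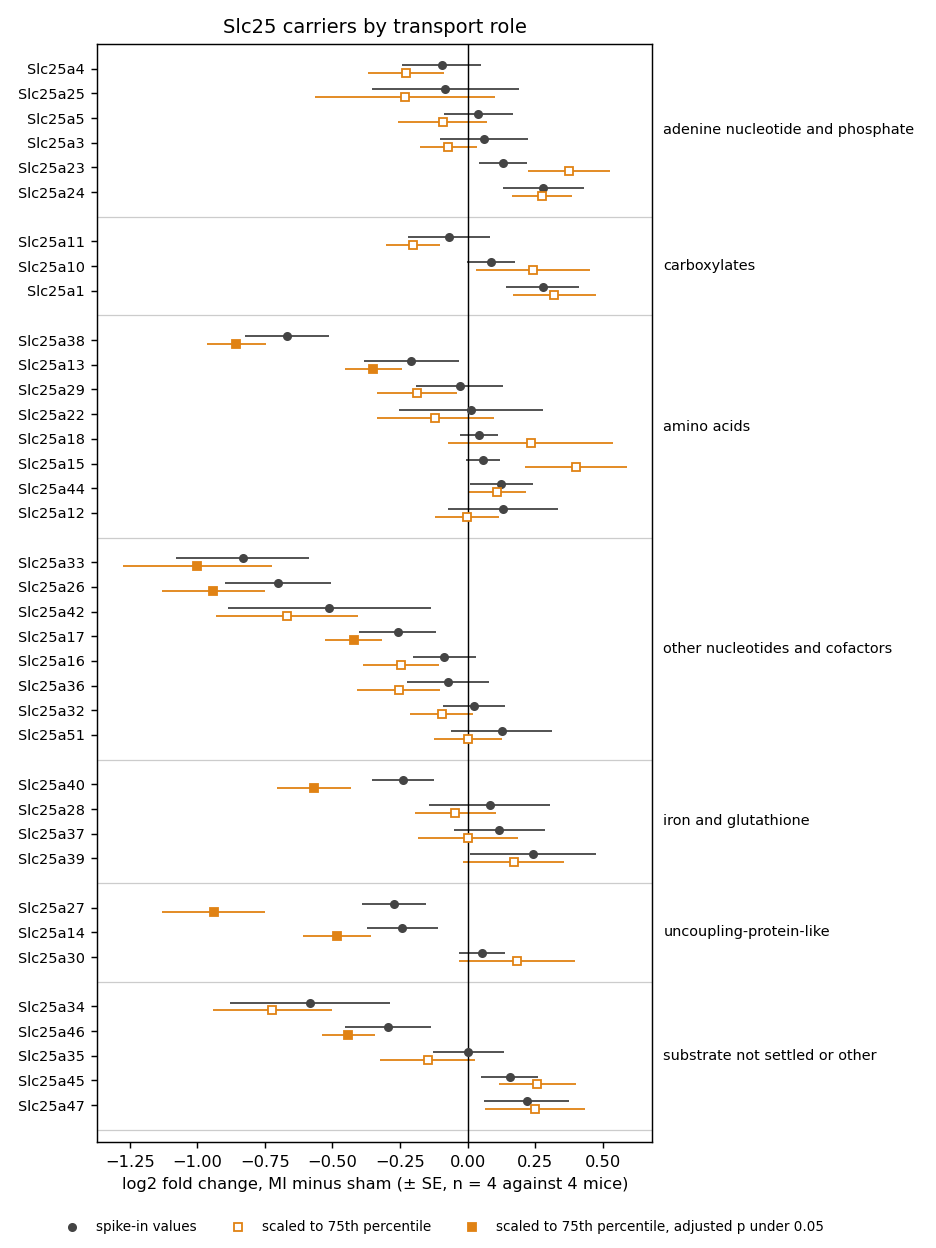
Log2 fold change of 37 of the 38 carriers, MI minus sham (horizontal axis), with its standard error, in spike-in values (dark circles) and after scaling to the 75th percentile (orange squares, filled at an adjusted p under 0.05), grouped by transported substrate. The 9 filled squares all lie below 0, and 3 of them belong to carriers of other nucleotides and cofactors.

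The carriers of adenine nucleotides and phosphate did not pass in any direction on either scale. Slc25a4 had a log2 spike-in signal of 19.05, 18.56, 19.09 and 18.69 in the MI group and of 18.75, 18.86, 19.21 and 18.95 in the sham group. The groups overlapped, with a log2 fold change of -0.10 (SE 0.15, 95% interval -0.43 to 0.24, limma adjusted p = 0.883). Slc25a3 read 16.10, 15.46, 16.12 and 15.71 in the MI group and 15.81, 15.55, 16.003 and 15.79 in the sham group, a log2 fold change of 0.06 (SE 0.16, interval -0.31 to 0.43, limma adjusted p = 0.941). The MI mice reached below the range of the sham-operated mice in both genes, and above it in Slc25a3 alone. Both intervals lay within 2-fold. Slc25a5, the ADP/ATP carrier of proliferating tissues, had a log2 fold change of 0.04 (interval -0.25 to 0.33). The ATP-Mg/phosphate carriers, which set the adenine nucleotide content of the matrix and respond to calcium, read -0.08 for Slc25a25, 0.13 for Slc25a23 and 0.28 for Slc25a24. Once scaled to the 75th percentile, Slc25a24 was the 1 carrier with all MI mice above all sham-operated mice, at 8.88 to 9.01 against 8.49 to 8.85 (log2 fold change 0.28, limma adjusted p = 0.12), where 11% of all probes separated in that direction.

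Among the 8 amino acid carriers with a signal, Slc25a38 stood lowest. Slc25a38 brings glycine into the matrix for the first step of heme synthesis. Its log2 spike-in signal was 11.37, 10.72, 11.38 and 11.25 in the MI group and 11.84, 11.73, 12.09 and 11.74 in the sham group. All 4 MI mice lay below all 4 sham-operated mice, and Slc25a38 was the only carrier of the 38 whose groups did not overlap in spike-in values, beside 2.39% of all probes that separated in this direction and 6.61% in the other. The log2 fold change was -0.67 (SE 0.16, interval -1.03 to -0.31, 1.59-fold lower), with a limma adjusted p of 0.0584 and an exact two-sided permutation p of 0.0286, the smallest that 4 against 4 mice can give. On the scaled values the 4 MI mice lay at 10.87 to 11.03 and the 4 controls at 11.67 to 11.999, a log2 fold change of -0.86 (SE 0.11, 1.81-fold lower, limma adjusted p = 0.00168). In the authors' normalized values the log2 fold change was -0.73 (limma adjusted p = 0.0473). Within the rows of the slide the spike-in difference was -0.74 in the first row and -0.60 in the second, each with 2 mice per group. Without both mice of number 2 it was -0.56, with a limma adjusted p of 0.0324.

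The other amino acid carriers showed smaller differences in spike-in values, from -0.21 to 0.13. Slc25a13 and Slc25a12 exchange aspartate for glutamate in the malate-aspartate shuttle. Slc25a13 read 12.62 to 12.80 in the MI group and 12.91 to 13.15 in the sham group after scaling to the 75th percentile, a log2 fold change of -0.35 (SE 0.10, limma adjusted p = 0.0491), and -0.21 in spike-in values (limma adjusted p = 0.707). Its call on the scaled values was lost when any of 7 of the 8 mice was left out. Slc25a12 read 0.13 in spike-in values and 0.00 after the scaling. The glutamate carriers Slc25a22 and Slc25a18, the ornithine carrier Slc25a15, the basic amino acid carrier Slc25a29 and the branched-chain amino acid carrier Slc25a44 did not pass on either scale. Slc25a15 was well above background on 7 arrays, and every other retained carrier on all 8.

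Carriers of other nucleotides and cofactors held the largest single differences of the family. Their median log2 fold change was -0.26 over 9 genes in spike-in values, beside 0.01 over all 38 carriers. The 3 uncoupling-protein-like carriers had a similar median of -0.24. On the scaled values the median was -0.42 for the cofactor group and -0.48 for the uncoupling-protein-like group. Slc25a33 imports pyrimidine nucleotides for mitochondrial DNA and RNA synthesis. Its log2 spike-in signal was 12.13, 11.36, 12.04 and 12.39 in the MI group and 12.34, 13.24, 12.78 and 12.88 in the sham group. MI mouse 4 lay above sham mouse 1, so that the groups overlapped by that pair. The log2 fold change was -0.83 (SE 0.25, interval -1.39 to -0.27, 1.78-fold lower, limma adjusted p = 0.127, exact permutation p = 0.0571). On the scaled values it was -1.0 (SE 0.28, limma adjusted p = 0.037), the 1 carrier past the 2-fold threshold (by less than the digits show) beside 4.24% of all retained probes, and this call was lost when any of 6 of the 8 mice was left out. A second, dimmer probe of Slc25a33 read -0.50 in spike-in values and -0.77 after the scaling (limma adjusted p = 0.0925). Without both mice of number 2, the log2 fold change of the brighter probe was -0.48 in spike-in values.

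Slc25a26 imports S-adenosylmethionine, the methyl donor of mitochondrial RNA and protein methylation. It read 10.54, 9.88, 10.36 and 10.80 in the MI group and 11.17, 11.14, 11.31 and 10.77 in the sham group in spike-in values. Only MI mouse 4 and sham mouse 4 crossed. The log2 fold change was -0.70 (SE 0.20, interval -1.15 to -0.26, limma adjusted p = 0.104). Scaled to the 75th percentile, the groups no longer overlapped, and the log2 fold change was -0.94 (SE 0.19, 1.92-fold lower, limma adjusted p = 0.0119). This call held with any 1 mouse left out, from -1.09 to -0.83. The second probe of the gene, of nearly the same brightness, gave less: -0.22 in spike-in values (limma adjusted p = 0.519) and -0.38 after the scaling (limma adjusted p = 0.0299).

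Slc25a17, a carrier of peroxisomes for coenzyme A and other cofactors, read -0.26 in spike-in values and -0.42 after the scaling (limma adjusted p = 0.0251). That call was lost without any of 6 of the 8 mice. Slc25a42, a coenzyme A carrier, read -0.51 with the largest standard error of the family in spike-in values (0.38), its MI mice spanning 11.20 to 12.89 and its sham-operated mice 11.95 to 13.21. The other members of the group, Slc25a16, Slc25a36, Slc25a32 (folate) and Slc25a51 (NAD+), lay between -0.09 and 0.13.

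**Figure D3:**
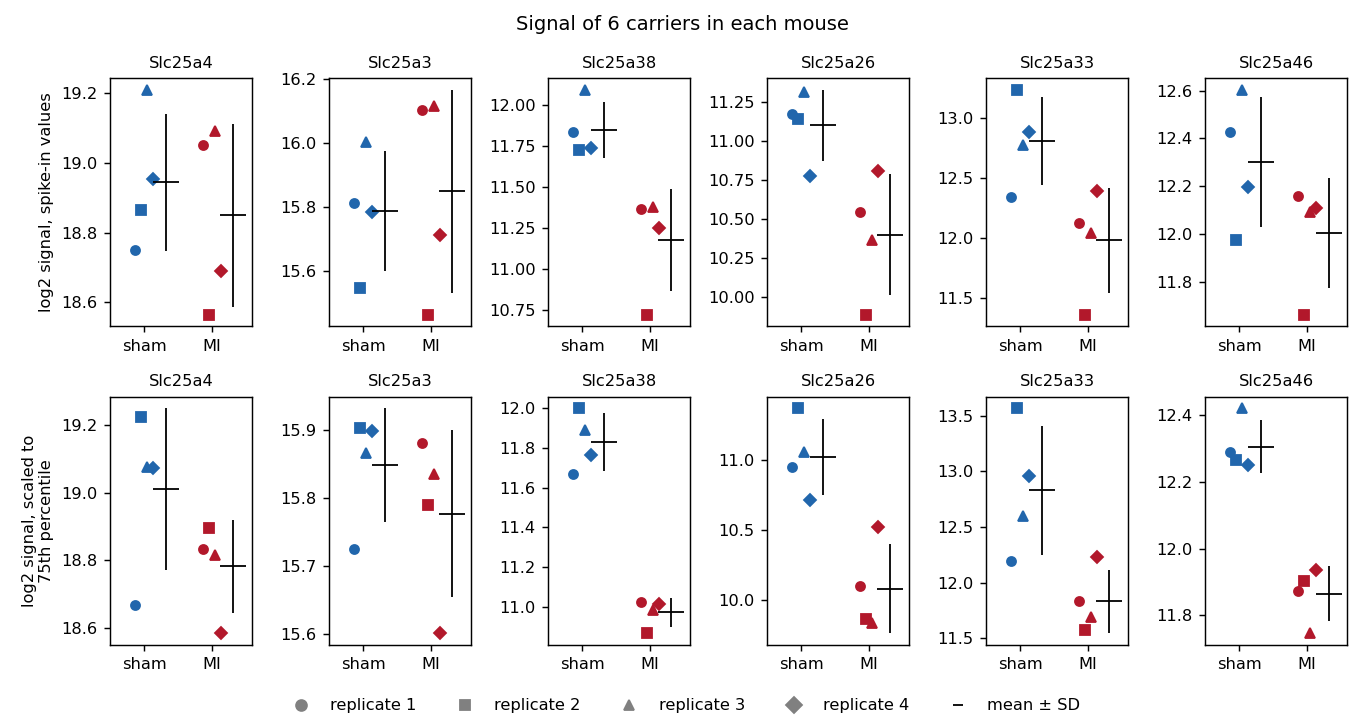
Log2 signal (vertical axis) of 6 carriers in each of 4 sham-operated (blue) and 4 MI mice (red), with symbols for the replicate number and mean ± SD beside the points, in spike-in values (top row) and after scaling to the 75th percentile (bottom row). Slc25a38 separates the groups in both rows, Slc25a26 and Slc25a46 in the bottom row alone, and Slc25a4, Slc25a3 and Slc25a33 in neither.

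Promoter sequences are shown for the carrier whose groups separated on both scales (Slc25a38), for the carrier with the largest difference (Slc25a33) and for the 2 heart markers of the family that did not pass (Slc25a4 and Slc25a3). They are the 250 bases before the annotated start in RefSeq, assembly GRCm38.p6, written 5′ to 3′ on the strand of the gene. Slc25a38 lies at chr9:120110132-120110381, plus strand, Slc25a33 at chr4:149774268-149774517, minus strand, Slc25a4 at chr8:46211063-46211312, minus strand, and Slc25a3 at chr10:91123968-91124217, minus strand. Capitals mark matches, on either strand, to 3 motifs of factors known to act on mitochondrial genes: CCGGAAG for ETS factors such as GABP, GCGCANGCG for NRF1 and AAGGTCA for estrogen-related receptors.
Slc25a38: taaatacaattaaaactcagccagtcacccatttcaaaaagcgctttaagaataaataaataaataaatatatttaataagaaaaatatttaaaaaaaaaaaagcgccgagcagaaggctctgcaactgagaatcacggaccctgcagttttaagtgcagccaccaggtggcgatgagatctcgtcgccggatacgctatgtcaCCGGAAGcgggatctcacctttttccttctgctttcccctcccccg
Slc25a33: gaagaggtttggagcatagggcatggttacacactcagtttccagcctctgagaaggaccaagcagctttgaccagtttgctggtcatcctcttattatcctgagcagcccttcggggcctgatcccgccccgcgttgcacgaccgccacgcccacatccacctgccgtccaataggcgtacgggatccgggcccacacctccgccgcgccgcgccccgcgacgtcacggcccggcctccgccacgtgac
Slc25a4: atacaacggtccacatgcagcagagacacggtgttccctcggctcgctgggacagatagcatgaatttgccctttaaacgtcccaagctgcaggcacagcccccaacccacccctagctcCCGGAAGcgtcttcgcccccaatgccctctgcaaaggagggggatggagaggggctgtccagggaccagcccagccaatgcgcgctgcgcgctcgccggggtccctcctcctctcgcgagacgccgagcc
Slc25a3: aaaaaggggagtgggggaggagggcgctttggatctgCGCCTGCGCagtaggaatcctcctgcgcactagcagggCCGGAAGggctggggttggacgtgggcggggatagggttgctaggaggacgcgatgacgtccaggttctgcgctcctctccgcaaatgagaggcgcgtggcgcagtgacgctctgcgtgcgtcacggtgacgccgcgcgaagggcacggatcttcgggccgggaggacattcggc
The ETS letters stood 46 to 40 bases before the start in Slc25a38, 130 to 124 bases in Slc25a4 and 175 to 169 bases in Slc25a3, and the NRF1 letters 213 to 205 bases before the start in Slc25a3. The window of Slc25a33 held none of the 3 motifs. A promoter was listed for 29 of the 38 retained carriers and not for 9, Slc25a26 among the latter. Of all 32851 promoter windows of the same length 6.91% held the ETS letters, 5.16% the NRF1 letters and 4.08% the receptor letters. Of the 37 windows of retained carriers 4, 1 and 1 held them. The ETS letters thus occurred both in Slc25a38 and in the markers that did not pass.

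Among the iron and glutathione carriers, the mitoferrins Slc25a37 and Slc25a28, which import iron, read 0.12 and 0.08 in spike-in values and 0.00 and -0.05 after scaling to the 75th percentile. A second probe of Slc25a37 read 0.25 and 0.42 (limma adjusted p = 0.222 and 0.0708). Slc25a39 and Slc25a40 carry glutathione. Slc25a39 read 0.24 in spike-in values, and Slc25a40 read 8.92, 8.55, 8.75 and 8.997 in the MI group and 9.13, 8.85, 9.16 and 9.02 in the sham group, a log2 fold change of -0.24 (SE 0.11, limma adjusted p = 0.379). After the scaling Slc25a40 was lower without overlap, with a log2 fold change of -0.57 (SE 0.14, limma adjusted p = 0.0227). This call was lost without any of 5 of the 8 mice.

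The uncoupling-protein-like carriers were dim or of medium signal. Slc25a27, the dimmer of the called pair, had a mean signal of 90.3 with MI and 147 without, under the additive constants of the spike-in values. It read 6.34, 5.92, 6.27 and 6.66 in the MI group and 7.65, 6.99, 7.14 and 7.16 in the sham group after scaling to the 75th percentile. All MI mice lay below all sham-operated mice there, with a log2 fold change of -0.94 (SE 0.19, limma adjusted p = 0.012), which held with any 1 mouse left out. In spike-in values it was -0.27 (limma adjusted p = 0.321), and in the authors' normalized values -0.71 (limma adjusted p = 0.105). Slc25a14 read -0.24 in spike-in values and -0.48 after the scaling (limma adjusted p = 0.0311, lost without any of 4 of the 8 mice), and Slc25a30 read 0.05 and 0.18.

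The carboxylate carriers did not pass on either scale. Slc25a1, which exports citrate for fatty acid synthesis, read 0.28 in spike-in values (SE 0.14, limma adjusted p = 0.391), the dicarboxylate carrier Slc25a10 0.09 and the oxoglutarate carrier Slc25a11 -0.07. On the scaled values the MI mice of Slc25a11 lay at 15.75 to 15.97 and the controls at 16.05 to 16.18, a separation with a log2 fold change of -0.20 (SE 0.10, limma adjusted p = 0.2).

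Among the members whose substrate is unsettled or that have another role, Slc25a46, an outer membrane protein of mitochondrial dynamics, read -0.29 in spike-in values (SE 0.16, limma adjusted p = 0.449) and -0.44 after scaling to the 75th percentile (SE 0.10, limma adjusted p = 0.017). Its 4 MI mice read 11.75 to 11.93 after the scaling and its sham-operated mice 12.25 to 12.42, and the call was lost only without MI mouse 3. A second, dimmer probe of Slc25a46 read 0.09 and 0.05 on the 2 scales, so the probes of this gene did not show the same difference. Slc25a34 read 14.78, 13.69, 14.34 and 13.79 in the MI group and 15.17, 14.09, 14.70 and 14.97 in the sham group, a log2 fold change of -0.58 (SE 0.30, limma adjusted p = 0.412) that was -0.72 after the scaling (limma adjusted p = 0.0528). Slc25a35, Slc25a45 and Slc25a47 read 0.00, 0.16 and 0.22 in spike-in values.

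After that scaling, 9 of the 10 called carriers had groups that did not overlap, and 10 of all 38 carriers separated in this direction (Slc25a11 in place of Slc25a33), beside 12.7% of all probes. Of the 10 called carriers, quantile normalization called 9, normexp correction with quantile normalization 10, and the authors' normalized values 3. Quantile normalization called 9.21% of all retained probes lower and normexp correction 10.7%. Of the 8 carriers with more than 1 retained probe, 4 had probes that differed in sign in spike-in values (Slc25a3, Slc25a25, Slc25a46 and Slc25a51), with 0.13 for the brighter and -0.18 for the dimmer probe of Slc25a51. None of these second probes passed in spike-in values.

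No carrier probe was above background on 4 arrays for 8 genes. Slc25a21 (oxodicarboxylates), Slc25a41 (ATP-Mg/phosphate), Slc25a43, Slc25a48 and Slc25a54 were well above background on no array. Slc25a2 (ornithine) was so on 1 array of each group, Slc25a31, the ADP/ATP carrier of the germ line, on 1 sham array, and Slc25a53 on 2 sham arrays with 1 of its 2 probes. No fold is given for these genes.

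Related carriers were set against each other within each array, which removes the array's overall signal from bright probes. Of 15 listed pairs 12 had both members retained, and none passed when exact permutation p-values were adjusted over the 12 (smallest adjusted p = 0.171). Slc25a30 over Slc25a14 was the 1 pair without overlap in spike-in values, with log2 ratios of -1.499, -1.14, -1.53 and -1.498 in the MI group and -1.77, -1.76, -1.56 and -1.77 in the sham group (difference 0.30, exact permutation p = 0.0286). On the scaled values these groups overlapped (difference 0.67, exact permutation p = 0.114). Slc25a40 over Slc25a39 separated on the scaled values, with a difference of -0.74 (exact permutation p = 0.0286), and not in spike-in values, where it was -0.48 (exact permutation p = 0.0571).

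Slc25a13 over Slc25a12 had log2 ratios of -1.40, -1.42, -1.52 and -1.22 in the MI group and -1.26, -0.95, -0.99 and -0.997 in the sham group. MI mouse 4 overlapped with sham mouse 1, and the difference was -0.34 in spike-in values and -0.35 on the scaled values (exact permutation p = 0.0571 on both). Slc25a33 over Slc25a36, the 2 pyrimidine nucleotide carriers, differed by -0.76 and -0.75 (exact permutation p = 0.0571 on both). Slc25a5 over Slc25a4 differed by 0.13, Slc25a37 over Slc25a28 by 0.04, Slc25a22 over Slc25a18 by -0.03, Slc25a42 over Slc25a16 by -0.43 and Slc25a34 over Slc25a35 by -0.59 in spike-in values, each with overlapping groups. The 3 ratios among Slc25a23, Slc25a24 and Slc25a25 differed by 0.15 to -0.36, also with overlap.

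**Figure D4:**
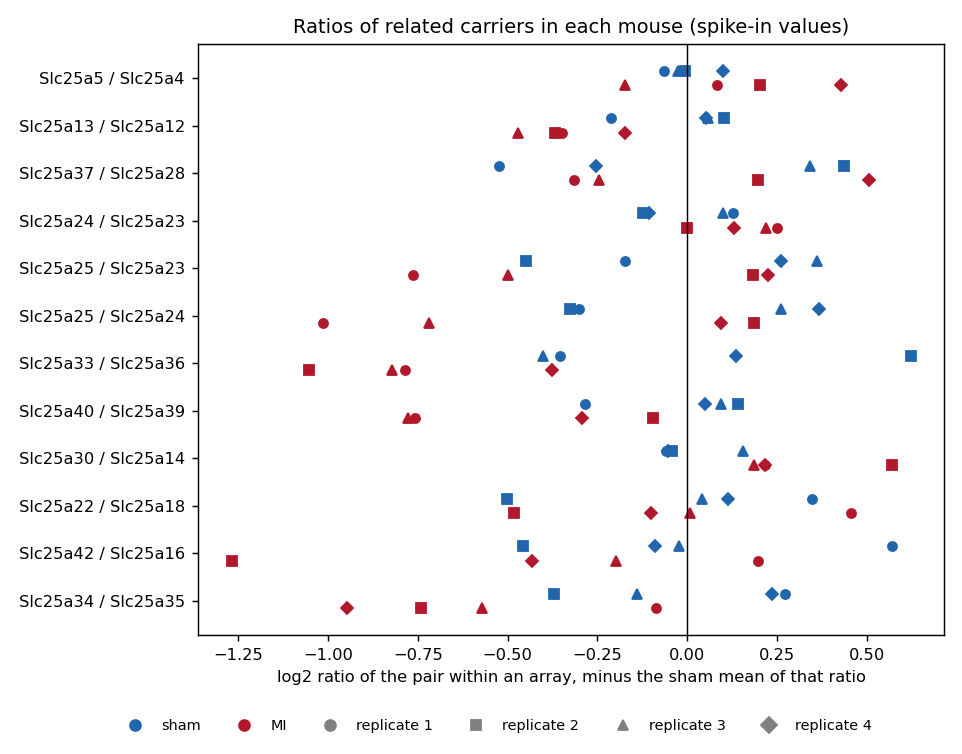
Log2 ratio of the members of 12 pairs within each array, less the mean of that ratio in sham-operated mice (horizontal axis), for 4 sham-operated mice (blue) and 4 MI mice (red) with symbols for the replicate number, in spike-in values. The groups do not overlap for Slc25a30 over Slc25a14 alone. The MI mice all lie below the sham mean in Slc25a33 over Slc25a36, Slc25a13 over Slc25a12, Slc25a40 over Slc25a39 and Slc25a34 over Slc25a35.

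Genes that work with the carriers were compared in the same way, and so were other carriers and carrier-like proteins whose symbols fall outside the Slc25a rule. Of 54 genes in 6 lists 53 were retained, and 0 passed in spike-in values, with log2 fold changes from -0.61 to 0.64 and a smallest adjusted p of 0.078 (limma). On the scaled values 1 was higher and 5 lower, shares of the 53 that are to be read beside the 8.7% and 8.84% of all retained probes called in these directions. The first list held these other carriers and carrier-like proteins of the mitochondrial membranes (11 of 12 retained). Its member Sfxn4, a sideroflexin, read 8.83 ± 0.32 with MI and 9.44 ± 0.14 in sham-operated mice (SD, n = 4). The log2 fold change of Sfxn4 was -0.61 in spike-in values and -1.16 after the scaling (limma adjusted p = 0.00527). Sfxn4 was also lower in the authors' normalized values (-0.98, limma adjusted p = 0.022). Ucp2, an uncoupling protein found also in leukocytes, read 0.64 and 0.60 (limma adjusted p = 0.19 and 0.023), and Mtch2 -0.35 and -0.49. Along the carrier import route (13 of 13 retained), Timm8b read -0.32, Timm8a1 0.38 and Agk, a subunit of the inner membrane insertase, -0.29, and Agk was lower after the scaling (-0.52, limma adjusted p = 0.0148).

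The partners of ADP/ATP exchange (9 of 9 retained) had a median of 0.06 in spike-in values, with 0.21 for the creatine kinase Ckb, 0.26 for the mitochondrial creatine kinase Ckmt1 and 0.39 for cyclophilin D (Ppif), and none passed on either scale. The enzymes of the malate-aspartate shuttle (4 of 4) read 0.24 for Got2, -0.16 for Mdh2 and -0.11 for Got1, and none passed on either scale. Among the heme and iron partners of Slc25a38 and the mitoferrins (8 of 8), the first enzyme of heme synthesis read 0.46 as Alas1 and 0.46 as its erythroid form Alas2. After the scaling Abcb10, an inner membrane transporter of heme-forming cells, was lower (-0.37, limma adjusted p = 0.0297), a gene named after its values were seen. Of the regulators of mitochondrial biogenesis (8 of 8), Gabpa and Esrrg read -0.24 and -0.28 in spike-in values and were lower after the scaling (-0.45 and -0.53, limma adjusted p = 0.0477 and 0.0399), and Ppargc1b read 0.22 and 0.18.

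The cell type markers give the tissue in which these values were measured. All 10 cardiomyocyte markers, among them Myh6, Tnnt2 and Ttn, were well above background on all arrays, and none passed in spike-in values. Their median log2 fold change was -0.05, beside -0.18 after scaling to the 75th percentile, where phospholamban (Pln) was lower (-0.68, limma adjusted p = 0.00643). The log2 of their summed signals was 20.98 to 21.55 with MI against 21.07 to 21.57 in sham-operated mice. Such a sum mostly follows the brightest genes of its list. Of 9 retained neutrophil markers 4 rose in spike-in values, S100a8 by 2.99, S100a9 by 2.78, Retnlg by 3.92 and Cxcr2 by 1.495. The others did not pass there, with 0.53 for Ngp, 0.23 for Camp, 0.09 for Csf3r, 0.01 for Mpo and -0.08 for Elane. The log2 of the summed signals of this list was 17.65 to 18.27 with MI against 15.95 to 16.39 in sham-operated mice. Mpo was well above background on 6 arrays and Ngp on 4, and no probe was named Ly6g, Cd68 or Ahsp here. Of 9 monocyte and macrophage markers Cd14 and Ccr2 rose, and the log2 of the summed signals was 15.26 to 15.83 against 15.01 to 15.91. The median log2 fold change of this list was 0.15 in spike-in values. Cx3cr1, Adgre1 and Csf1r read -0.25, -0.17 and -0.15, and Fcgr1, Mrc1, Lyz2 and Itgam read 0.36, 0.18, 0.15 and 0.14, none of them passing.

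No fibroblast, endothelial or red cell marker passed in spike-in values, with 8 of 8, 8 of 8 and 6 of 8 genes retained. On the scaled values no fibroblast or red cell marker passed, and of the endothelial markers Pecam1 was higher (0.53, limma adjusted p = 0.0389) and Flt1 lower (-0.37, limma adjusted p = 0.0471). The log2 of the summed signals of the fibroblast markers was 15.52 to 16.81 with MI against 16.46 to 17.13 in sham-operated mice. In spike-in values single fibroblast markers ran from -0.71 for collagen Col3a1 to 0.51 for periostin (Postn). Their median was -0.39, beside -0.53 on the scaled values. Only Postn and Tcf21 (0.24) read above 0 in spike-in values. Postn had the smallest limma adjusted p of the list (0.0719). The log2 of the summed signals of the endothelial markers was 15.18 to 15.70 with MI against 15.34 to 15.86 in sham-operated mice. The red cell markers bear on Slc25a37 and Slc25a38 as carriers of heme synthesis. The log2 of their summed signals was 18.79 to 19.25 with MI against 17.83 to 19.46 in sham-operated mice. Sham mouse 1 was the low end. The part of these cell types in the carriers' values was not tested.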

How the data were processed

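The intensities used are Feature Extraction's processed signals as deposited, from which the scanner software had taken the local background and spatial trends of each array; arrays were not yet normalized against each other. The authors' log2 values were made from them with limma and vsn on the spike-in probes. Median foreground and background intensities, as deposited, served for normexp correction (offset 50). All 8 arrays lay on 1 slide, each of the 2 rows holding 2 MI and 2 sham arrays, and were scanned together. The share of spots well above background was 58.6% to 66.4% per array. Arrays have no read depth, and their number limits the precision.

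Here the vsn likelihood was fitted with an own implementation on 234 spots of 7 spike-in probes. Spots of a probe were averaged, outlier spots left out, and probes well above background on at least 4 arrays kept (34038). Groups from the sample labels were compared with limma 3.58.1 (R 4.3.3) without covariates, adjusted by Benjamini-Hochberg over all retained probes. Nothing in the labels says more about the separation of the animals than the replicate numbers. Single values and ratios of pairs were compared with exact two-sided permutation tests in Python 3.11.15 with numpy 2.4.6, scipy 1.17.1, pandas 2.3.3 and matplotlib 3.10.9. Symbols came from RefSeq (GRCm38.p6) through the accessions of 26582 probes, so gene coordinates of the array's older build are not given. Probe sequences were not used, so cross-hybridisation between close relatives such as Slc25a4 and Slc25a5 was not tested. Significance analysis of microarrays used all 70 label permutations. The procedures were tested on simulated data.

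The members and lists were chosen with earlier results of these data known. Named genes were Slc25a4, Slc25a3, carriers past the threshold in spike-in values (at most 10 per direction), members of compared pairs, and at most 3 genes with the smallest adjusted p per related list. Alternatives were other normalizations, detection filters, probe rules, tests and blocks, and each mouse left out. The values of 1 carrier and of 2 other listed genes are not reported here; they are part of the counts and medians.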

Additional observations from a re-analysis of the deposited data

Results flagged for a closer look

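Each group of 4 mice was examined for a single mouse apart from the others, by the gap between the outermost mouse and its neighbour over the range of the group (Dixon's criterion at the 95% level). Of 76 groups, 38 carriers in MI and in sham-operated mice, 5 stood out, where chance gives about 1 in 20. All 5 were MI mouse 2 in spike-in values. It read 7.999 for Slc25a23 beside 8.24 to 8.27 in the other MI mice, 8.79 for Slc25a32 beside 9.12 to 9.18, 8.52 for Slc25a44 beside 8.85 to 8.89, 8.32 for Slc25a45 beside 8.57 to 8.62, and 11.66 for Slc25a46 beside 12.09 to 12.16. The same mouse was lowest of its group for 87.1% of all retained probes.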

How the results depend on the processing

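In spike-in values 0 carriers were lower at an adjusted p under 0.05. A shift of each array by its spike-in signals, without an additive constant, also gave 0. The count was 10 after scaling to the 75th percentile, 9 with quantile normalization, 10 with normexp correction and quantile normalization, 3 in the authors' normalized values, 3 with significance analysis of microarrays, and 1 (Slc25a38) with only probes well above background on all 8 arrays. With each mouse left out in turn it was 0 to 1, with Slc25a38 passing without MI replicate 2, and without both mice of number 2, chosen after seeing the data, it was 1. The number of higher carriers stayed at 0 under every alternative on the spike-in values and was 0 to 0 with each mouse left out. The count past 2-fold was 1 after scaling to the 75th percentile (Slc25a33), 0 under the other alternatives and 0 to 0 with each mouse left out. The median log2 fold change of the carriers was 0.01, and -0.11 to 0.09 with each mouse left out. Of 806 values of single carriers under an alternative, 40 newly passed, 0 reversed past a threshold, and 55 changed sign with neither value past it. No pair passed under any alternative. The cause of these differences was not tested.

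With the replicate block 2 carriers (Slc25a38 and Slc25a42) were lower, and 4935 retained probes were called in place of 1271. The replicate numbers are not known to pair the mice: the correlation of same-numbered deviations was 0.28, 0.36, 0.09 and 0.00.

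On the values scaled to the 75th percentile, leaving out each mouse in turn, an alternative chosen after seeing the data, gave 4 to 10 lower carriers in place of 10. There were 8 without MI mouse 1, 5 without MI mouse 2, 4 without MI mouse 3, 5 without sham mouse 2, 6 without sham mouse 3, 5 without sham mouse 4 and 2 without both mice of number 2. Without sham mouse 1, 2 carriers were higher. Slc25a38, Slc25a26 and Slc25a27 were among the carriers that passed with any 1 mouse left out. Carriers under the additive constant of 166 to 257 are limited by signal over background in spike-in values. The compression is not confined to the 8 carriers under the smallest constant. Slc25a40, with mean signals of 256 with MI and 306 without, read -0.24 in spike-in values and -0.42 in the authors' normalized values. With the spike-in shift and no additive constant, Slc25a27 read -0.81 and Slc25a38 -0.72. Neither passed there (limma adjusted p = 0.153 and 0.101). From that shift to the scaling to the 75th percentile, the median change of a probe was -0.13.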
